A study of Mus musculus with 8 samples.

Results

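The genes described here encode the nuclear subunits of the respiratory chain, the 4 electron transport complexes and the ATP synthase of the mitochondrial inner membrane, together with cytochrome c. They were chosen by gene symbol, from the rows beginning with Nduf and a subunit letter, Sdha to Sdhd, Uqcr, Cox4 to Cox8, Cyc1, Cycs, Cyct and Atp5. The choice took 99 of the 17121 genes in the table, and all 99 passed the filter on low values. By their symbols they are 40 genes of complex I, 8 complex I assembly factors (the Ndufaf genes), 4 of complex II, 9 of complex III, 2 cytochrome c genes, 18 of complex IV, 17 of complex V and 1 pseudogene. Ndufa4 and Ndufa4l2 are counted with complex IV, since the product of Ndufa4 is now placed there. Ndufb4, Ndufb4b and Ndufb4c have identical values in every library, so these 3 genes carry a single measurement.

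RNA-seq was made from mouse testis in 4 libraries with the genotype label N6amt1-SKO (SKO below) and 4 with the label CTL. N6AMT1 is a methyltransferase that works with TRMT112, and the series asks how it acts in the making of sperm. SKO and CTL are not spelled out, and no Cre line, strain or age is given. Since nothing states that each library is a different animal, the p-values cover the spread among the libraries alone, and that spread may be technical. Testis is the labelled tissue, although heart ventricles are named in the protocol for RNA extraction. The values are those of a tissue with male germ cells. The spermatocyte gene Ldhc had normalised values of 173973 to 372933 over the 8 libraries, and the heart muscle gene Myh6 274.2 to 1085. N6amt1 itself had normalised values of 588.7, 560.2, 563.6 and 628.0 in SKO 1 to 4, against 477.3, 435.0, 632.7 and 517.2 in CTL 1 to 4. The groups overlap (limma adjusted p = 0.437), so this sum over the whole gene does not check the genotype labels.

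Electrons from NADH enter the chain at complex I and those from succinate at complex II. They pass through complex III and cytochrome c to complex IV, which reduces oxygen, and the proton gradient so built drives complex V. Most subunits are made from nuclear genes and imported, and a small core is made from the mitochondrial genome. Several subunits have a second gene that is known for expression in testis and in male germ cells, among them Cyct, Cox6b2, Cox7b2 and Cox8c, whose widely expressed counterparts are Cycs, Cox6b1, Cox7b and Cox8a.

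The table holds counts that had been rescaled library by library and rounded. Before that scaling the depth was 65.6, 46.7, 58.8 and 40.6 M reads in SKO 1 to 4, and about 257.7, 70.1 and 57.4 M reads in CTL 1, 3 and 4. The factor of CTL 2 could not be read from its values. 18S ribosomal RNA took 0.969% of the values in SKO 4 and 0.731% and 0.721% in CTL 3 and CTL 4, against 0.173% to 0.273% in the other 5 libraries. Because this split crosses the groups, fold changes are also given within the 5 libraries with less 18S (SKO 1 to 3 and CTL 1 and 2) and within the 3 with more (SKO 4 and CTL 3 and 4), where SKO has a single library. Values below are deposited values divided by a trimmed-mean scaling factor per library. Fold changes are differences of mean log2(value + 5), SKO minus CTL, tested with limma and adjusted over 17066 genes by the Benjamini-Hochberg method.

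In SKO libraries 9 members rose and 0 fell, and 90 were not called. The risen members were the cytochrome c gene Cycs, the complex IV genes Cox7a1, Cox7b and Ndufa4, the complex I genes Ndufa1, Ndufb11 and Ndufv3, the assembly factor Ndufaf4 and the complex V gene Atp5g2. They make up 9.09% of the members, beside 11.9% of all genes tested that rose, so the number of rises is near the background. The falls number 0 beside 7.93% of all genes. At an unadjusted p below 0.05 limma gave 16 members higher and 5 lower, beside 21.7% and 15.3% of all genes. The calls depend on single libraries. Without SKO 3 limma called 0 members and 0 genes of the table, with 11 members higher and 2 lower at an unadjusted p below 0.05, beside 16.3% and 11.7% of all genes. Without SKO 1 and without CTL 3, 3 members rose in each case, beside 4.76% and 4.02% of all genes. Without SKO 2 and without CTL 2, 5 rose in each case, beside 4.82% and 6.49% of all genes. Leaving out SKO 4, CTL 1 or CTL 4 gave 8, 10 and 7, beside 14.4%, 8.14% and 11.1% of all genes. The median log2 fold change of the members was 0.18, against 0.04 for all genes tested. Scaled by library totals the medians were 0.47 and 0.33, and 26 members rose and 0 fell, beside 28.6% and 2.67% of all genes. With libraries weighted by their quality 14 members rose and 17 fell, beside 31.2% and 27.5% of all genes. The groups did not overlap for 16 members, 16.2%, of which 12 were higher and 4 lower in SKO, where 15.6% of all genes did not overlap and were higher and 10.6% did not overlap and were lower. All 9 risen members had 4 of 4 SKO libraries above every CTL library.

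**Figure D1:**
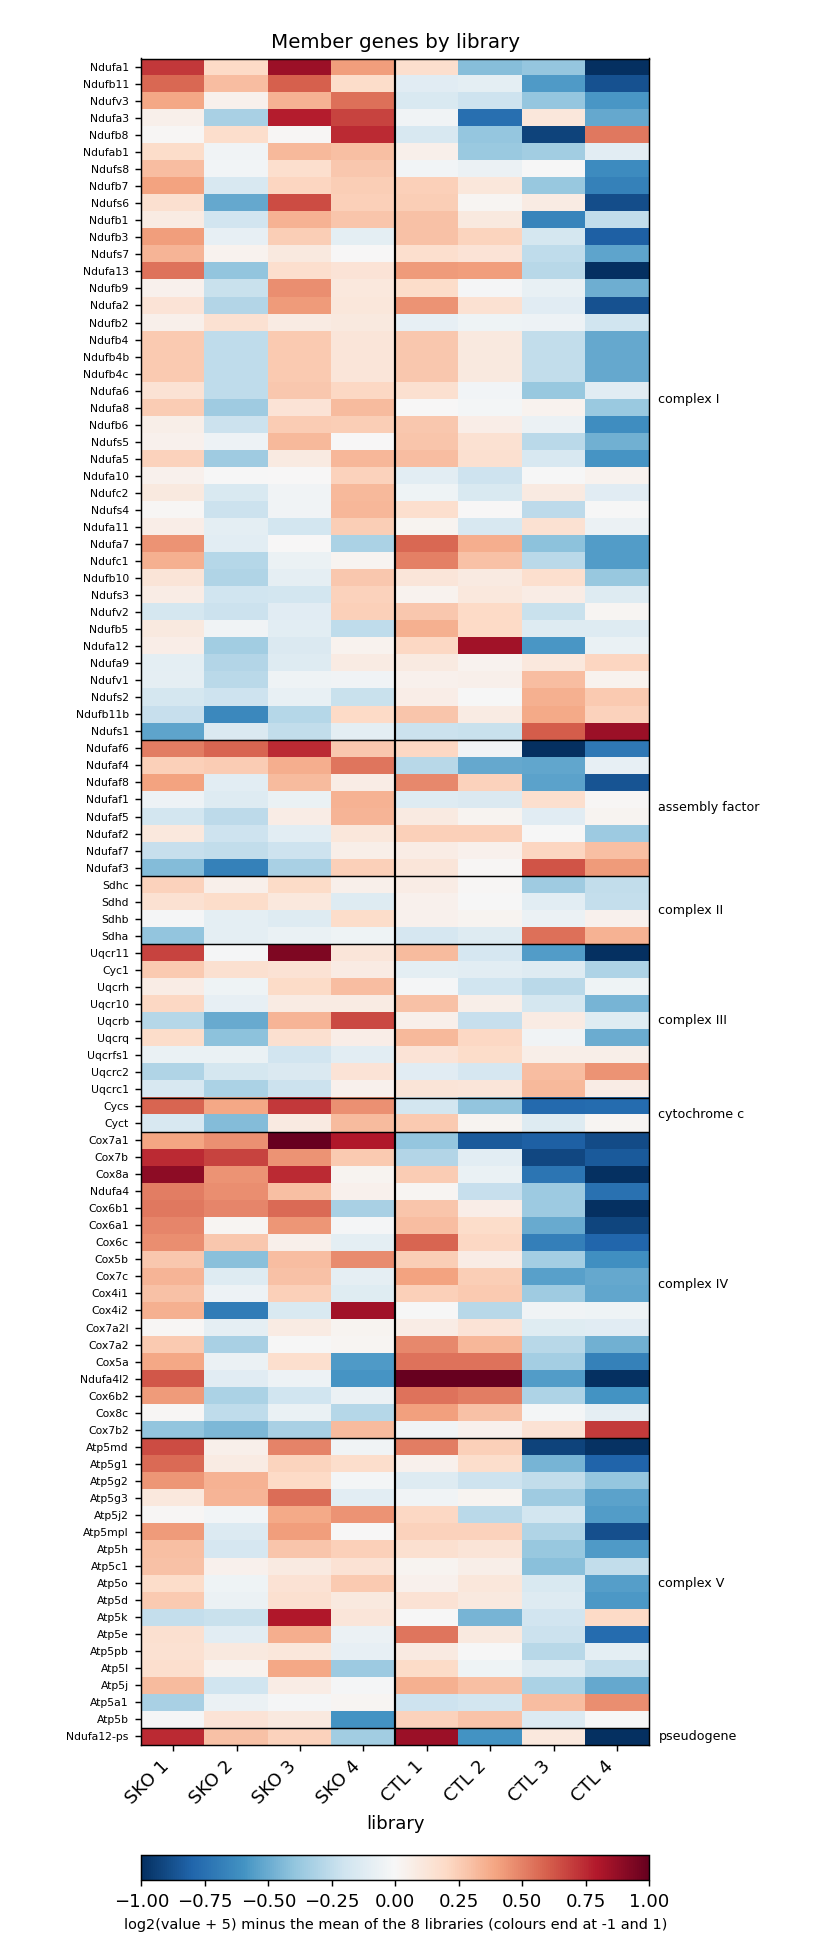
Each row is a member gene and each column a library, coloured by log2(value + 5) minus the mean of the 8 libraries for that gene (red above, blue below). Rows are grouped by complex and sorted by fold change, and CTL 4 is the lowest of the 8 libraries for 53 of the 99 members.

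Single libraries stood out across the family. CTL 4 was the lowest of the 8 libraries for 53 members, CTL 3 for 16 and SKO 2 for 12. CTL 3 and CTL 4 were both below all other libraries for 36 members. The median deviation of the members from their mean over the libraries was 0.18, -0.11, 0.16 and 0.11 in SKO 1 to 4, against 0.16, 0.04, -0.22 and -0.48 in CTL 1 to 4. The summed members took 0.766%, 0.680%, 0.773% and 0.721% of the deposited values in SKO 1 to 4, against 0.728%, 0.668%, 0.559% and 0.548% in CTL 1 to 4. In shares the groups thus overlap, and CTL 3 and CTL 4 lie lowest.

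**Figure D2:**
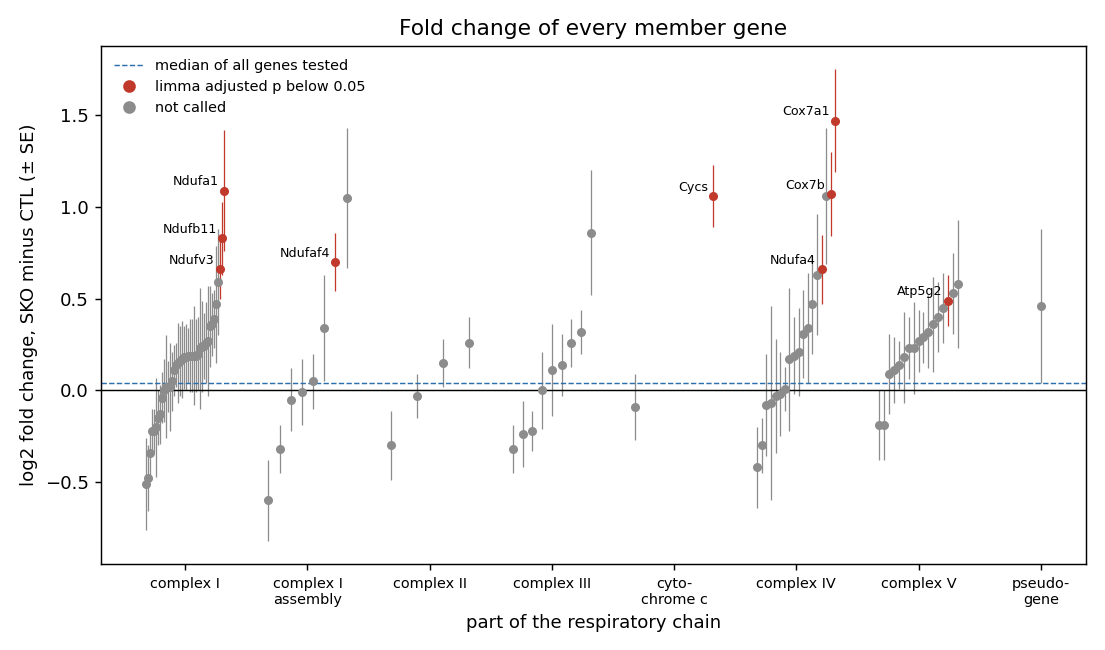
Points are the log2 fold changes of the 99 members, SKO minus CTL, with bars of 1 standard error, arranged by complex. Red points are the 9 members with a limma adjusted p below 0.05, all above 0, and the dashed line is the median of all genes tested, 0.04.

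Cycs and Cox7b rose, and their testis counterparts Cyct and Cox7b2 were not called over the 8 libraries. The ratios within such pairs are given as a description, without a test. Cytochrome c, the soluble carrier between complexes III and IV and a trigger of apoptosis when it leaves the mitochondrion, has such a pair. Cycs (chromosome 6, 50562563 to 50566569, GRCm38) rose to 6497, 5691, 7094 and 5962 in SKO 1 to 4, against 3831, 3305, 2539 and 2545 in CTL 1 to 4. Every SKO library was above every CTL library, with means of 6311 ± 619.8 in SKO and 3055 ± 630.1 in CTL (SD, n = 4 each), a 2.09-fold rise (log2 fold change 1.06, standard error 0.17, limma adjusted p = 0.0123). Its testis counterpart Cyct (chromosome 2, 76353942 to 76360453) had 3520, 2904, 4175 and 4886 in SKO 1 to 4, against 4718, 4000, 3595 and 3986 in CTL 1 to 4. These values overlap (log2 fold change -0.09, standard error 0.18, limma adjusted p = 0.743), and the sign of the difference turned with library totals, to 0.20. In the transcripts of Cycs, 26.1% of the 50-base words also occur in transcripts of other genes such as Gm10053, so part of its value may be shared.

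The ratio of Cyct to Cycs does not depend on the scaling of the libraries. It was 0.542, 0.510, 0.589 and 0.819 in SKO 1 to 4, against 1.23, 1.21, 1.42 and 1.57 in CTL 1 to 4. All SKO ratios were below 1 and all CTL ratios above it. The log2 difference was -1.16, and it was -1.16 within the libraries with less 18S and -0.86 within those with more. As the groups do not overlap, the sign within each set follows and is no independent replication. These ratios compare values, not transcript numbers. Per kb of exon Cyct was the more abundant in both groups, with 5910 in SKO and 6221 in CTL, and Cycs had 1854 in SKO and 897.5 in CTL. This order depends on exon lengths of 655 bases for Cyct and 3404 for Cycs.

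The 250 bases upstream of the starts of both cytochrome c genes and of the Cox7b pair are shown because in both of these testis pairs the widely expressed gene rose. They come from RefSeq, build GRCm38.p6, and run 5′ to 3′ on the gene's strand. Capitals mark the cyclic AMP response element TGACGTCA, found in Cycs, and the other 3 sequences hold none of the 4 motifs searched.
Cyct (chr2:76360454-76360703, minus strand): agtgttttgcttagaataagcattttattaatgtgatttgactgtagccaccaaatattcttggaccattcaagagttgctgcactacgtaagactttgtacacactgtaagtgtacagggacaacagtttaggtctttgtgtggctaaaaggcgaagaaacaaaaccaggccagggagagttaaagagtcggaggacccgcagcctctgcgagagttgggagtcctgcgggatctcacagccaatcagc
Cycs (chr6:50566570-50566819, minus strand): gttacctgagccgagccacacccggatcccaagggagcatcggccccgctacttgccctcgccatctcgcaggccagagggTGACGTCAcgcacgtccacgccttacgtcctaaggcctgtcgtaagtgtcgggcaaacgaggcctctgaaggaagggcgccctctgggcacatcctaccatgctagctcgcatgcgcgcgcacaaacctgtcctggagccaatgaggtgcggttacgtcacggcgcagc
Cox7b2 (chr5:71548206-71548455, minus strand): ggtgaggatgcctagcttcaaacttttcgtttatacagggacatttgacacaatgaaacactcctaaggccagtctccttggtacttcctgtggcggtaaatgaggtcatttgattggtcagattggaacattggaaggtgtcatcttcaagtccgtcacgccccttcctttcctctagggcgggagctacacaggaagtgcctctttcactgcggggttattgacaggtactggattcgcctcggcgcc
Cox7b (chrX:106015450-106015699, plus strand): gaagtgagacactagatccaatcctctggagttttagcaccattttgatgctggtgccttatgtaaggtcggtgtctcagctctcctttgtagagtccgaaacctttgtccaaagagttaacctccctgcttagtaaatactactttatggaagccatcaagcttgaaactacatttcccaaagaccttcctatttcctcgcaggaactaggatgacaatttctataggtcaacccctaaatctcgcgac

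Complex IV, cytochrome c oxidase, holds the other isoform pairs. Cox7b, a small subunit gene on the X chromosome (106015700 to 106022450), rose to 809.0, 770.2, 657.6 and 576.5 in SKO 1 to 4, against 391.5, 445.5, 253.3 and 266.1 in CTL 1 to 4. The SKO libraries were all higher (703.3 ± 106.2 in SKO and 339.1 ± 94.4 in CTL, SD, n = 4 each; 2.10-fold, limma adjusted p = 0.017). Its autosomal testis counterpart Cox7b2 (chromosome 5, 71442823 to 71548205) had 6634, 6405, 6993 and 10901 in SKO 1 to 4, against 8537, 8984, 9661 and 14171 in CTL 1 to 4. Here 3 of 4 SKO libraries were below every CTL library (log2 fold change -0.42, standard error 0.22, limma adjusted p = 0.188), and in the 5 libraries with less 18S the gene was called lower (-0.39, limma adjusted p = 0.032). The ratio of Cox7b2 to Cox7b was 8.2, 8.32, 10.6 and 18.9 in SKO 1 to 4, against 21.8, 20.2, 38.1 and 53.3 in CTL 1 to 4, without overlap. Its log2 difference of -1.49 was -1.22 within the libraries with less 18S and -1.24 within those with more. Here too the sign within each set follows from the separation of the groups.

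Cox8a, which encodes the small subunit VIII of most tissues, had 3113, 2280, 2807 and 1702 in SKO 1 to 4, against 1986, 1592, 1006 and 556.2 in CTL 1 to 4. It did not pass, with a log2 fold change of 1.06 and a standard error of 0.37 (limma adjusted p = 0.0689), and SKO 4 lay below CTL 1. It was called higher in other fits, among them the 5 libraries with less 18S (0.61, limma adjusted p = 0.0449), the fit with the length trend removed (1.00, limma adjusted p = 0.0131) and that with 18S as covariate (0.81, limma adjusted p = 0.0272). Cox8c, its testis counterpart, had 20488, 16994, 19351 and 16638 in SKO 1 to 4, against 26996, 24876, 20025 and 19060 in CTL 1 to 4. It did not pass either (log2 fold change -0.30, standard error 0.15, limma adjusted p = 0.188), but was called lower in the 5 libraries with less 18S (-0.46, limma adjusted p = 0.0328). The ratio of Cox8c to Cox8a nevertheless separated the groups, at 6.58, 7.45, 6.89 and 9.77 in SKO 1 to 4, against 13.6, 15.6, 19.9 and 34.3 in CTL 1 to 4. Its log2 difference was -1.36, and -1.06 and -1.41 within the libraries with less and with more 18S. The sign within each set again follows from the separation of the groups.

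The Cox6b pair was less clear. Cox6b1 had 2035, 1982, 2093 and 1128 in SKO 1 to 4, against 1710, 1478, 1098 and 598.6 in CTL 1 to 4 (log2 fold change 0.63, standard error 0.33, limma adjusted p = 0.2). Cox6b2, the testis form of this subunit, had 19488, 11633, 12608 and 13934 in SKO 1 to 4, against 21171, 20644, 11738 and 9596 in CTL 1 to 4 (log2 fold change -0.08, standard error 0.28, limma adjusted p = 0.875). The fold change of Cox6b2 was 0.21 with library totals, and -0.60 and called lower with libraries weighted by their quality (limma adjusted p = 0.0115). Both genes overlap between the groups, and so does their ratio, which was 9.57, 5.87, 6.03 and 12.4 in SKO and 12.4, 14, 10.7 and 16 in CTL 1 to 4. The log2 difference of -0.70 was -0.91 within the libraries with less 18S and -0.08 within those with more.

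**Figure D3:**
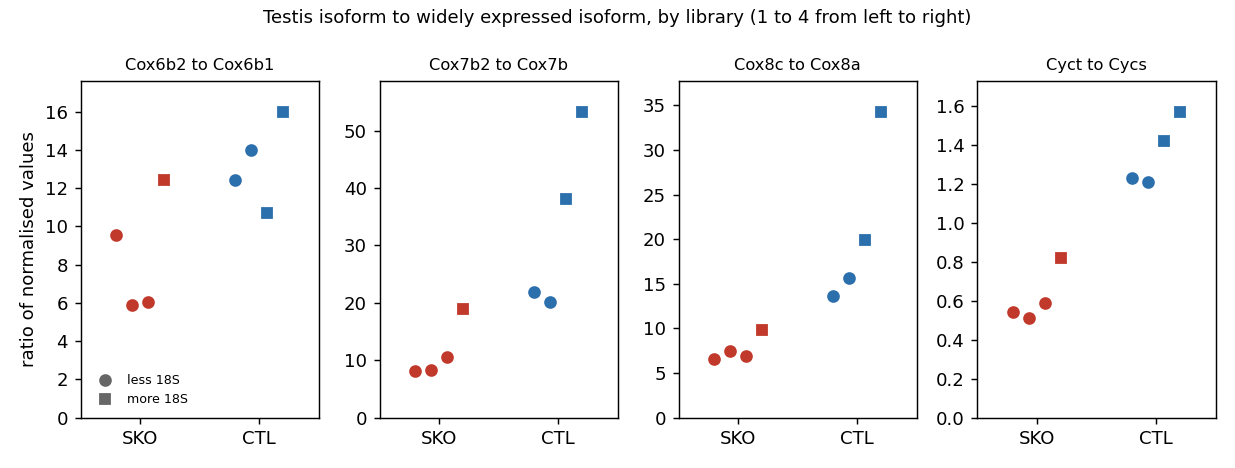
Each panel plots the ratio of the normalised value of a testis gene to that of its widely expressed counterpart, a point per library, on axes that start at 0. Squares are the 3 libraries with more 18S. The groups do not overlap for Cox7b2 to Cox7b, Cox8c to Cox8a and Cyct to Cycs, and overlap for Cox6b2 to Cox6b1.

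Per kb of exon the testis genes stayed the more abundant members of their pairs in both groups. Cox8c was the most abundant complex IV gene, with 40104 per kb in SKO and 49649 in CTL, and Cox8a had 4000 in SKO and 2076 in CTL. Cox7b2 had 14268 per kb in SKO and 19074 in CTL, and Cox7b had 579.4 in SKO and 279.3 in CTL. In a bulk tissue, more RNA per cell and more cells of a type that uses the gene cannot be told apart.

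Of the other complex IV genes, Cox7a1 and Ndufa4 rose. Cox7a1, the subunit VIIa form known from heart and skeletal muscle, had 167.0, 174.7, 312.2 and 223.1 in SKO 1 to 4, against 95.1, 68.3, 69.5 and 65.4 in CTL 1 to 4. This is the largest log2 fold change among the members, 1.47 with a standard error of 0.28 (2.76-fold, limma adjusted p = 0.0143), on a low value. Before scaling it had 90 to 203 reads in SKO libraries and 40 and 32 reads in CTL 3 and CTL 4. The deeper CTL 1 had about 236. Its ratio to Cox7a2, the widely expressed form, was 0.0139 to 0.0313 in SKO and 0.0054 to 0.00911 in CTL. Some smooth and heart muscle genes also rose, beside 11.9% of all genes. Of 4 peritubular myoid markers measured, 2 rose, with a summed value of 33995 to 40079 in SKO and 19536 to 23332 in CTL. Of 8 heart muscle markers listed, Actc1, Myl2 and Nppa had no values. Of the 5 measured, 2 rose (Tnni3 and Tnnt2), with sums of 4312 to 6657 in SKO and 2242 to 2860 in CTL. Those sums rest largely on Tnni3 (means of 4063 in SKO and 1399 in CTL). Myh6, Myh7 and Myl7 overlap between the groups and were not called (limma adjusted p = 0.108, 0.296 and 0.484). The atrial light chain gene Myl7 lay between 12.1 and 98.8 in SKO and between 8.03 and 56.7 in CTL. Whether these genes mark cells that have a part in the rise of Cox7a1 was not tested.

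Ndufa4 had 2166, 2102, 1877 and 1566 in SKO 1 to 4, against 1536, 1293, 1178 and 904.8 in CTL 1 to 4. The groups do not overlap, and the rise was 1.58-fold (log2 fold change 0.66, standard error 0.19, limma adjusted p = 0.0382). Its paralogue Ndufa4l2, known as a hypoxia-induced gene, had 2652, 1591, 1657 and 1137 in SKO 1 to 4, against 3623, 3479, 1165 and 647.9 in CTL 1 to 4 (limma adjusted p = 0.944). It was high in CTL 1, CTL 2 and SKO 1, and its ratio to Ndufa4 overlapped, at 0.726 to 1.22 in SKO and 0.716 to 2.69 in CTL. Cox4i2, the lung and hypoxia form of subunit IV, had ratios to Cox4i1 of 0.00187 to 0.00628 in SKO and 0.0021 to 0.00433 in CTL. The 10 complex IV genes not given here by their own fold change lay between log2 fold changes of -0.07 and 0.47, with limma adjusted p-values from 0.242 to 0.952.

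In complex I the 3 risen genes encode small accessory subunits. Ndufa1 (X chromosome, 37187588 to 37191238), needed in the membrane arm, had 1836, 1290, 2032 and 1502 in SKO 1 to 4, against 1263, 836.3, 858.9 and 383.0 in CTL 1 to 4 (2.13-fold, log2 fold change 1.09, standard error 0.33, limma adjusted p = 0.0446). Ndufb11 (X chromosome, 20615326 to 20617619), also of the membrane arm, had 2104, 1750, 2139 and 1608 in SKO 1 to 4, against 1305, 1320, 953.2 and 770.7 in CTL 1 to 4 (1.78-fold, limma adjusted p = 0.0243). Ndufv3, at the NADH-oxidising tip, had 2491, 1957, 2416 and 2793 in SKO 1 to 4, against 1711, 1643, 1455 and 1272 in CTL 1 to 4 (1.58-fold, limma adjusted p = 0.023). In each of these genes the groups do not overlap. In Ndufb11, 12.9% of the exon bases overlap Rbm10 on the opposite strand and 17.5% of its 50-base words occur in other genes, and the library kit does not mark strand.

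A second gene with the Ndufb11 name was looked at after its values were seen. Ndufb11b, which has no entry in the annotation used here, had 12839, 9597, 12316 and 17242 in SKO 1 to 4, against 18274, 15944, 19548 and 17621 in CTL 1 to 4. It did not pass (log2 fold change -0.48, standard error 0.18, limma adjusted p = 0.0809). Its ratio to Ndufb11 was 6.1, 5.48, 5.76 and 10.7 in SKO 1 to 4, against 14, 12.1, 20.5 and 22.9 in CTL 1 to 4, again without overlap.

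A core subunit stood at the other end of the complex. Ndufs1, the largest iron-sulphur subunit, had the lowest fold change of the complex, with 8260, 10731, 10049 and 11085 in SKO 1 to 4, against 10234, 10175, 18094 and 21506 in CTL 1 to 4. CTL 3 and CTL 4 stand above all others, and the log2 fold change of -0.51 (standard error 0.25, limma adjusted p = 0.176) was -0.09 within the libraries with less 18S and -0.83 within those with more. Ndufb4c ranked highest per kb in complex I, but its values are those of Ndufb4 (3990 ± 628.0 in SKO and 3527 ± 842.7 in CTL, SD, n = 4 each, limma adjusted p = 0.517). Over the 390 exon bases of Ndufb4c they gave a mean of 9637 per kb, and over the 1916 of Ndufb4 1962. The rank thus rests on the short length of a gene not measured apart, and Ndufa2 had 7926 per kb. Among the genes placed in an arm, of 16 in the hydrophilic arm 1 rose and 0 fell (median log2 fold change 0.03), and of 21 in the membrane arm 2 rose and 0 fell (median 0.19). Over all genes 11.9% rose and 7.93% fell, with a median of 0.04. The 35 complex I genes outside the named ones lay between -0.48 and 0.59, with adjusted p-values of 0.0803 and above.

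Among the assembly factors, Ndufaf3 and Ndufaf4, whose products act together in building complex I, had fold changes of opposite sign. Ndufaf4 had 1024, 1033, 1118 and 1257 in SKO 1 to 4, against 712.4, 605.2, 603.2 and 816.5 in CTL 1 to 4, without overlap (1.62-fold, log2 fold change 0.70, standard error 0.16, limma adjusted p = 0.0203). Ndufaf3 had 21218, 17883, 22841 and 33652 in SKO 1 to 4, against 31176, 28877, 44279 and 38424 in CTL 1 to 4. It did not pass (log2 fold change -0.60, standard error 0.22, limma adjusted p = 0.0768), with 3 of 4 SKO libraries below every CTL library, but was called lower in the 5 libraries with less 18S (-0.55, limma adjusted p = 0.0256). Ndufaf6 had 250.1, 262.9, 296.1 and 211.0 in SKO 1 to 4, against 201.4, 170.2, 55.4 and 104.4 in CTL 1 to 4, without overlap but also without a call (log2 fold change 1.05, standard error 0.38, limma adjusted p = 0.0733).

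None of the 4 complex II genes was called by limma, where 11.9% of all genes rose and 7.93% fell. None had an unadjusted limma p below 0.05, beside 21.7% of all genes higher and 15.3% lower. With so few genes, the absence of calls does not set complex II apart. Sdha, the flavoprotein that oxidises succinate, averaged 20438 ± 2222 in SKO and 25606 ± 6337 in CTL, and Sdhb, the iron-sulphur subunit, 9908 ± 1009 in SKO and 10057 ± 331.3 in CTL (SD, n = 4 each). The membrane anchors Sdhc and Sdhd averaged 9251 ± 606.0 and 6051 ± 559.8 in SKO, against 7757 ± 1087 and 5435 ± 454.5 in CTL (SD, n = 4 each). All 4 genes overlap between the groups. The log2 fold changes of Sdha to Sdhd were -0.30, -0.03, 0.26 and 0.15 (limma adjusted p = 0.276, 0.901, 0.194 and 0.417), and that of Sdhb was 0.26 with library totals. With library totals, which moved the median of all genes to 0.33, Sdhc (0.55, limma adjusted p = 0.0313) and Sdhd (0.44, limma adjusted p = 0.0492) were called higher.

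Complex III had 0 limma calls among 9 genes, where 11.9% of all genes rose and 7.93% fell. At an unadjusted limma p below 0.05, 2 were higher and 1 lower, beside 21.7% and 15.3% of all genes. Uqcr11, a small subunit, had the highest log2 fold change, 0.86 with a standard error of 0.34 (limma adjusted p = 0.1), and its groups overlap, at 1442 to 2790 in SKO and 590.6 to 1813 in CTL. The core protein gene Uqcrc1 was lower in 4 of 4 SKO libraries, with 26720, 23961, 25673 and 30784 in SKO 1 to 4, against 32611, 32496, 37270 and 31401 in CTL 1 to 4. The difference did not pass (log2 fold change -0.32, standard error 0.13, limma adjusted p = 0.104), but was called with the length trend removed (-0.42, limma adjusted p = 0.0432). Uqcrfs1, the Rieske iron-sulphur protein gene and the most abundant of the complex per kb, had 10164 to 11096 in SKO and 12074 to 13195 in CTL, without overlap (log2 fold change -0.22, limma adjusted p = 0.182; 0.07 with library totals). Cyc1, the cytochrome c1 gene, had a log2 fold change of 0.32 and no overlap between the groups (limma adjusted p = 0.0771).

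In complex V the single call was Atp5g2, which is among several genes for the same c-ring subunit. It had 3899, 3649, 3287 and 2827 in SKO 1 to 4, against 2621, 2482, 2409 and 2188 in CTL 1 to 4. All SKO libraries were higher, at 1.40-fold (log2 fold change 0.49, standard error 0.14, limma adjusted p = 0.0404). Its words are 38.3% shared with other genes such as Gm10175, so the value is uncertain. The other c-ring genes Atp5g1 and Atp5g3 had log2 fold changes of 0.53 and 0.45 and did not pass (limma adjusted p = 0.12 and 0.111). Atp5a1, the alpha subunit and the most abundant per kb, averaged 41824 ± 4347 in SKO and 48582 ± 11588 in CTL (SD, n = 4 each, limma adjusted p = 0.491). Its log2 fold change was -0.19, and 0.10 with library totals. Atp5b had larger values, 53349 in SKO and 59929 in CTL, over 4237 exon bases against 3135 for Atp5a1. Atp5md, a small membrane subunit, was the highest of the complex at 0.58 with a standard error of 0.35 (limma adjusted p = 0.258).

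**Figure D4:**
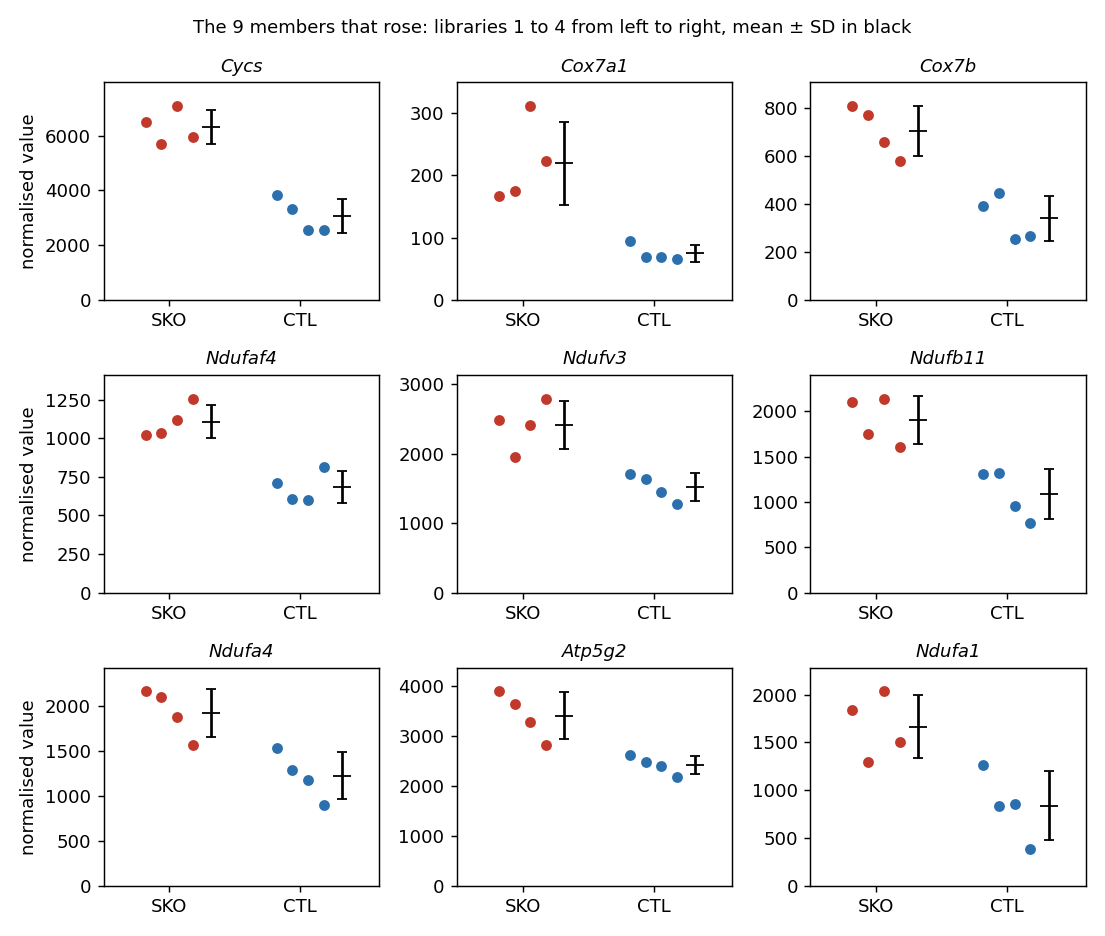
Normalised values of the 9 risen members, a point per library on axes that start at 0, with the mean ± SD beside each group (n = 4 each). Every SKO point is above every CTL point in each panel, and the CTL values of Ndufa1 reach down to 383.0.

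The X-linked members are Ndufa1, Ndufb11 and Cox7b, and all 3 rose, whereas 6 of 95 autosomal members rose and Ndufb11b was not placed. Of all 727 X-linked genes tested, 213 rose, or 29.3%, and 6 fell. The X chromosome is silenced in meiotic spermatocytes, and X-linked genes as a set have a median log2 fold change of 0.49 here, against 1.07 for the 3 members.

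The 9 risen members were higher in SKO in both library sets, while the median of the family had opposite signs in them. For these 9, every SKO library was above every CTL library over the 8 libraries. Their sign within each set follows from that and is no independent replication. Within the 5 libraries with less 18S, 8 members rose and 7 fell (8.08% and 7.07% of 99; 18.8% of all genes rose and 13.4% fell), and the members' median log2 fold change was -0.06. The 7 that fell there were Cox7b2, Cox8c, Ndufa4l2, Ndufaf3, Ndufb11b, Ndufv2 and Uqcrc1. The testis forms Cox7b2 and Cox8c are in this list, while Cox6b2 and Cyct were not called there (limma adjusted p = 0.0887 and 0.185). Of the 9 risen members 7 were called there, and Ndufa1 and Ndufv3 were not. Within the 3 libraries with more 18S no member was called by limma (0.205% of all genes rose and 1.35% fell; 17 members higher and 2 lower at an unadjusted p below 0.05, beside 7.14% and 10.2% of all genes), and the median was 0.40. The log2 fold changes of the 9 lay between 0.44 and 1.32 in the first set and between 0.30 and 1.65 in the second.

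**Figure D5:**
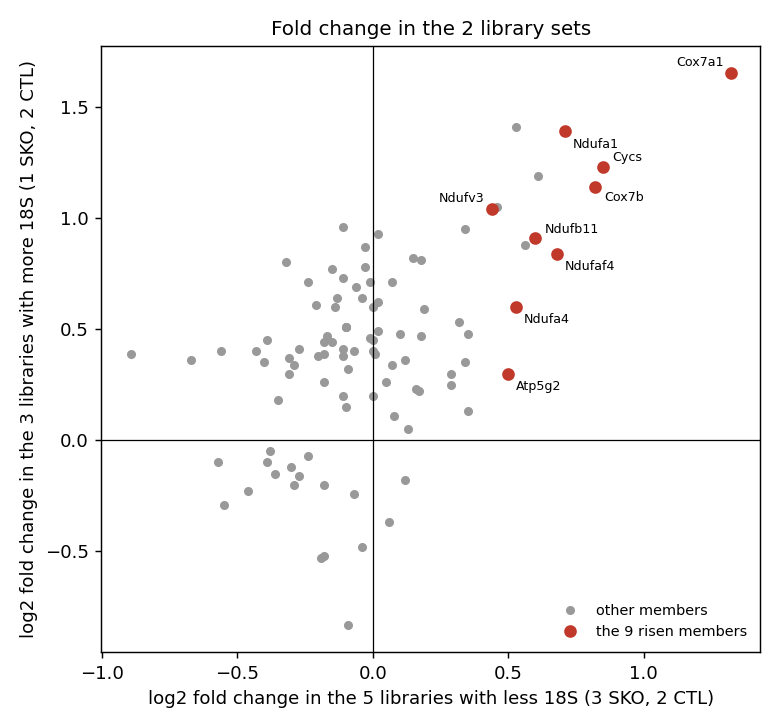
Each point is a member, with its log2 fold change in the 5 libraries with less 18S across and in the 3 libraries with more 18S up. The 9 risen members (red) are above 0 on both axes, which follows from their separation over the 8 libraries. The medians of all members are -0.06 across and 0.40 up.

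Transcript length moved with the library sets. The members are short, with a median of 1569 exon bases against 3985 for all genes tested. All 1094 genes under 1 kb had median log2 fold changes of -0.48 within the libraries with less 18S and 0.50 within those with more, and 25 members of that length had -0.04 and 0.51. Across genes, the deviation of a library from the mean had Spearman correlations with exon length of -0.374, 0.137, 0.071 and -0.08 in SKO 1 to 4, against -0.329, -0.269, 0.226 and 0.409 in CTL 1 to 4. With the length trend of each library removed, 10 members rose and 2 fell (12.0% of all genes rose and 11.7% fell). Of the 9 risen members 8 kept their call, and Atp5g2 did not.

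Markers of some cell types of the testis also differed between the groups. Over all genes 11.9% rose and 7.93% fell. Of 16 Sertoli cell markers 12 rose, with a summed value of 191827 to 363055 in SKO and 90172 to 185087 in CTL. By sign all 16 were higher. These sums rest largely on Clu, with means of 160956 in SKO and 64151 in CTL. Clu and Inha overlap between the groups and were not called (limma adjusted p = 0.0651 and 0.0895). Of 7 spermatogonial markers 4 rose, with sums of 26512 to 31476 in SKO and 15283 to 19664 in CTL. Of 8 spermatocyte markers 3 fell, with sums of 447645 to 491072 in SKO and 562263 to 714703 in CTL. By sign 5 were lower and 3 higher (Sycp1, Sycp3 and Meiob, not called). The sums rest mostly on Ldhc, which was not called (means of 205461 in SKO and 279036 in CTL), and on Hspa2, which fell (144798 and 207603). Elongating spermatid markers followed the libraries, with sums of 503324 in SKO 1 and 132269 to 143850 in SKO 2 to 4, against 486429, 586096, 216344 and 70719 in CTL 1 to 4. Macrophage markers overlapped (8988 to 16225 in SKO and 9039 to 11277 in CTL, 1 of 8 risen), as did Leydig cell markers (31460 to 64727 in SKO and 39845 to 50530 in CTL, 1 of 7 risen). Round spermatid, endothelial and red blood cell markers overlapped too, with 0 of 6, 0 of 5 and 0 of 5 risen and 1 red blood cell gene fallen. No marker gene was at 0, and the part of these cells in the isoform ratios was not tested.

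Other genes of mitochondrial energy metabolism were listed beside the subunits. Of 45 further assembly factors tested 6 rose, or 13.3%, near the 11.9% of all genes. They had 0 falls, beside 7.93% of all genes, and a median log2 fold change of 0.20. The largest rises were those of Cox14 (1.95-fold, limma adjusted p = 0.0322), which acts early in complex IV assembly, of the X-linked Hccs (1.74-fold, limma adjusted p = 0.0272), which attaches haem to cytochrome c, and of the complex I assembly gene Tmem126b (1.66-fold, limma adjusted p = 0.0255). Of 19 genes of pyruvate dehydrogenase and the citric acid cycle 2 rose and 3 fell. These are 10.5% and 15.8%, beside 11.9% and 7.93% of all genes. Mdh2, mitochondrial malate dehydrogenase, rose 1.71-fold (limma adjusted p = 0.0204), and the X-linked Idh3g, a subunit of NAD-dependent isocitrate dehydrogenase, 1.6-fold (limma adjusted p = 0.0196).

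The falls among these genes included a testis form. Pdha2, the autosomal testis form of the pyruvate dehydrogenase alpha subunit, had 13961, 13740, 15633 and 21118 in SKO 1 to 4, against 21104, 22014, 27919 and 22673 in CTL 1 to 4 (log2 fold change -0.55, limma adjusted p = 0.0475). Dlat, its E2 partner, fell by 0.61 on the log2 scale (limma adjusted p = 0.0479), and Sucla2, a succinyl-CoA ligase subunit, by 0.48 (limma adjusted p = 0.0255). Of 12 biogenesis regulators, among them Ppargc1a, Nrf1 and Tfam, 0 were called by limma, with log2 fold changes from -0.36 to 0.50. At an unadjusted limma p below 0.05, 1 was higher and 0 lower, beside 21.7% and 15.3% of all genes. Yy1, the most abundant per kb, averaged 14971 ± 1116 in SKO and 14200 ± 1785 in CTL (SD, n = 4 each; limma adjusted p = 0.699). Of 12 subunit genes of the mitochondrial genome 2 rose, or 16.7%, beside 11.9% of all genes. They were CYTB (1.79-fold, limma adjusted p = 0.0366) and COX3 (1.82-fold, limma adjusted p = 0.0255). All 12 were higher, with a median log2 fold change of 0.60. They lie on the same genome, so their signs may not be separate observations. Together they took 2.27%, 2.11%, 2.33% and 4.53% of the deposited values in SKO 1 to 4. In CTL 1 to 4 they took 1.28%, 1.13%, 1.35% and 1.99%.

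The promoters of the members were searched for 4 motifs in windows of 250 bases before to 50 after the start. Windows were held for 79 members and for 13143 genes of the table, and both strands were read. ETS and YY1 matches overlapped in 1 gene of the table and in 0 members, and no other motifs overlapped. The palindromic consensus of NRF1 was in 7 of 79 members (8.86%), against 1.94% of the genes in the table. The ETS core CCGGAAG was in 24.1% of members, against 16.8%, the YY1 motif AAGATGGC in 13.9%, against 4.46%, and the cyclic AMP response element TGACGTCA in 6.33%, against 3.22%. Of the 9 risen members, 2 held the NRF1 motif (Atp5g2 and Ndufaf4) and 1 the cyclic AMP response element (Cycs), while 0 held the ETS core or the YY1 motif in these windows.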

How the data were processed

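Total RNA from mouse testis was sequenced in 4 N6amt1-SKO and 4 CTL libraries, grouped by their titles. Per the labels' protocols the RNA was taken with TRIzol and the kit was NEBNext Ultra, which marks no strand. CASAVA, fastp, HISAT2 2.0.5, featureCounts 1.5.0-p3 and build mm10 are named in the submitters' processing notes. The authors deposited 1 table, whose values are a score: counts that were scaled and then rounded. This is read from the values, 99.8% to 100.0% of which fall on rounded multiples of a step in the 6 libraries where chance gives 43.1% to 68.0%. In CTL 1 the step rests on a weak signal. The authors' scaling and their handling of shared reads are not given in the sources used here. Count tests could not be used, so limma replaced them. The lowest row maximum is 95.

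The filter kept genes that reached 25 in 4 or more libraries. Trimmed-mean factors (trims of 30% and 5%) scaled the libraries. The log2(value + 5) was modelled by group alone with limma 3.58.1 (R 4.3.3), its variance following the mean. Tests are two-sided with a threshold of 0.05, and the fit was tested on simulated data. This scale makes the changes of low genes look smaller. Libraries were split at 0.5% 18S. Exon lengths and overlaps come from GENCODE M21, which matched 97 members, and gene positions from RefSeq GRCm38.p6, of which mm10 is the browser name. A length counts the exon bases of all transcripts of a gene, so ranks per kb depend on this choice.

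The members and lists were chosen with earlier results of these data known. Members named were the 4 testis isoforms and their counterparts, all called members, the complex II genes, and in each complex the most abundant per kb, the highest and the lowest. Of the other lists, up to 3 called genes in each direction, or the most abundant, were named. Other scalings, filters, added constants, variance models, a replicate block, a length correction, the 18S sets and leaving out each library were tried.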

Additional observations from a re-analysis of the deposited data

Results flagged for a closer look

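Of 56 groups of 4 values (28 named members in each genotype), 4 held a library far from the other 3, where chance flags about 1 group in 20. Cox7b2 was 10901 in SKO 4, against 6405 to 6993 in SKO 1 to 3. Cox6b1 was 1128 in SKO 4, against 1982 to 2093 in SKO 1 to 3. SKO 4 is the SKO library with more 18S. Cox7a1 was 95.1 in CTL 1, against 65.4 to 69.5 in CTL 2 to 4, and Sdha was 17143 in SKO 1, against 21118 to 21933 in SKO 2 to 4.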

How the results depend on the processing

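The count of 9 members higher in SKO was 26 with library totals, 14 with array weights and 0 in the 3 libraries with more 18S, and 0 to 10 when a library was left out. The count of 0 members lower was 17 with array weights, 7 in the 5 libraries with less 18S, 2 with the length trend removed, 2 with 18S as covariate (12.9% of all genes), 8 with both together (18.3% of all genes; chosen after seeing the data), and 0 to 2 when a library was left out. Other filters, added constants, factors and the fit with no mean-variance trend gave 7 to 10 higher and 0 lower. Same-numbered libraries had correlations of 0.672, 0.012, 0.082 and 0.231, so the numbers were not taken as pairs, and no SKO library correlated best with its own number. With a replicate block 12 members were higher and 2 lower, beside 12.7% and 9.97% of all genes, and Cox8a, Cox6b1 and Uqcr11 were called higher and Cox7b2 and Ndufaf3 lower.

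All 9 risen members kept their call with array weights and with library totals. Those fits called 31.2% and 28.6% of all genes higher, beside 11.9% in the main fit. Without SKO 3, 0 of the 9 kept their call. Without SKO 1 and without CTL 3, 3 kept it in each case. Ndufa1, Ndufa4, Ndufb11, Ndufv3 and Atp5g2 lost it in both of these fits. Median-ratio factors and the fit with no mean-variance trend each lost Ndufa1 and Atp5g2. Named members not called gained a call elsewhere. Library totals called Cox8a, Ndufaf6, Sdhc, Sdhd and Uqcr11 higher. Array weights called Cox8a and Ndufaf6 higher and Cox6b2, Cox7b2, Cox8c, Ndufaf3, Uqcrc1 and Uqcrfs1 lower. The 18S covariate called Cox8a higher and Cox8c and Ndufaf3 lower. The length correction called Cox8a and Uqcr11 higher and Uqcrc1 lower. Several fold changes that were not called changed sign. With library totals Cox6b2 was 0.21, Cyct 0.20, Uqcrfs1 0.07, Atp5a1 0.10 and Sdhb 0.26. Sdhb was 0.02 with upper quartile factors, and with array weights Ndufb4c was -0.05 and Atp5a1 0.10. In the libraries with less 18S Ndufb4c was -0.10 and Atp5a1 0.06, and in those with more Cox6b2 was 0.40, Cyct 0.37 and Sdhb 0.20. With a library left out Cox6b2 ranged from -0.32 to 0.04, Cyct from -0.21 to 0.04 and Sdhb from -0.10 to 0.01. The log2 ratio of Cox6b2 to Cox6b1 was -0.08 and that of Cyct to Cycs -0.86 in the libraries with more 18S. That of Cox4i2 to Cox4i1 was 0.06 and 0.55 in the libraries with less and more 18S, and -0.33 to 0.20 with a library left out. The cause was not tested. Cox7a1 and Cox4i2 are limited by their low values, and the set with more 18S by its single SKO library.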
